A study of Mus musculus with 16 samples.

Results

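Across 4 sorted cell populations, 9 transcription factors of macrophages and their relatives were described: Bhlhe40, Nfil3, Runx3, Maf, Cebpa, Cebpb, Klf4, Zeb2 and Id3. They were found as every probe on the arrays whose gene symbol was one of these names, which gave 13 probes. All 9 were among the 22112 genes or unnamed features that could be tested, and all 9 passed the filter on dim probes. The genes had been chosen with their levels on these arrays in view, so their own differences are a description. No p-value is printed for them, and whether a factor passed a threshold is given to set its difference beside the spread between arrays, with nothing read from it. Each population was profiled on 4 of 16 single-colour Agilent arrays, each from 1 ng of RNA labelled with Cy5. All cells came from C57BL/6 mice that received no treatment, and neither an age nor a transgene is given in the labels. CCR2+ Mac were heart macrophages in the CD45+, MerTK+, CD64+ and Ly6c-negative gate that were high for CCR2 and MHCII. MHC-IIHi Mac and MHC-IIlo Mac were heart macrophages of the same CD45+, MerTK+, CD64+ and Ly6c-negative gate without CCR2. MHC-IIHi Mac were MHCII-high and low for CD11c, and MHC-IIlo Mac were MHCII-low with no CD11c. Ly6cHi Mono were blood monocytes with high Ly6c, and no digestion step is described for them.

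Tissue macrophages keep their identity through sets of transcription factors, some shared by most macrophages and some set by the tissue. Maf is a large basic leucine zipper protein that helps to hold differentiated macrophages out of the cell cycle. Cebpa and Cebpb, basic leucine zipper proteins of the C/EBP family, act early in myeloid development, and Cebpb is needed for the survival of some monocytes. Klf4, a zinc finger factor, is required for inflammatory monocytes to form, and Zeb2, another zinc finger factor, keeps the identity of several tissue macrophages. Runx3 binds DNA through its Runt domain and is known in dendritic cells and in cytotoxic and innate lymphocytes. Bhlhe40 and Nfil3 both repress transcription, take part in the circadian clock and shape cytokine production. Id3 has no DNA-binding region of its own and holds E proteins away from DNA.

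Macrophage arrays had 58.1% to 69.3% of spots well above background and monocyte arrays 52.8% to 60.1%, with none saturated, and the number of arrays limits the precision. The 75th percentile of the processed signal was 941 to 1670 on macrophage arrays and 819 to 996 on monocyte arrays. The part of this gap in brightness in the differences between macrophages and monocytes was not tested. Arrays of the same group correlated across probes at 0.916 to 0.981. The 4 replicate numbers were 4 slides, each of which held 1 array of every group. All arrays of a group sat at the same position on their slides, so that position cannot be told apart from group. The deposited value table could not be used with its labels: none of its 16 columns matched the scanner array of the same label best, and 12 matched an array of another group. Each column correlated with the array it matched at 0.995 or more, and with its namesake at 0.969 or less. Sort markers on the scanner arrays followed the scanner labels. Ccr2 was higher in CCR2+ Mac than in MHC-IIHi Mac (log2 difference 3.86 ± 0.32, SE) and MHC-IIlo Mac (4.47 ± 0.32), and H2-Ab1, an MHCII chain, was higher in MHC-IIHi Mac than in MHC-IIlo Mac (1.82 ± 0.25), a call kept under 11 of 16 alternatives and lost in a fit to these 2 groups and without MHC-IIHi Mac replicate 1 or 4 or MHC-IIlo Mac replicate 2 or 3. Ly6c1, which encodes a Ly6c protein, read 2.37, 2.56, 3.68 and 1.97 in CCR2+ Mac, although their gate was Ly6c-negative. It read 1.61, 1.07, 1.23 and 1.39 in MHC-IIHi Mac, 1.32, 1.39, 1.46 and 1.61 in MHC-IIlo Mac and 6.01, 5.79, 5.76 and 5.50 in Ly6cHi Mono. The CCR2+ Mac arrays thus lay above those of both CCR2-negative groups and below those of monocytes. Mertk was at least 36.7-fold higher in every macrophage group than in Ly6cHi Mono, where no array had it well above background. Fcgr1, which encodes CD64, did not pass between any macrophage group and monocytes (0.31 ± 0.18, 0.25 ± 0.18 and 0.13 ± 0.18 for CCR2+ Mac, MHC-IIHi Mac and MHC-IIlo Mac). Whether the replicates are separate mice is not stated, so errors and p-values measure only the spread between these samples. In bulk samples such as these, fewer cells of a type and less RNA per cell cannot be told apart.

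Levels below are log2 signals relative to the 75th percentile of the same array, in the order of replicates 1 to 4, and a level of one gene cannot be set against that of another. Differences are log2 values, first group minus second, ± SE from limma with 4 arrays a group. A gene is said to pass where its limma p, adjusted by Benjamini-Hochberg over all genes tested, was under 0.05. The gene lists set beside the factors were also chosen with earlier results of these data known. Adjusted p-values of listed genes are therefore given as a description.

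Maf, Id3 and Klf4 were higher in heart macrophages than in blood monocytes. Maf read 2.79, 2.28, 2.45 and 2.05 in CCR2+ Mac and 3.48, 3.11, 2.72 and 2.81 in MHC-IIHi Mac. It read 3.98, 3.13, 3.19 and 3.23 in MHC-IIlo Mac and -0.74, -0.97, -0.70 and -0.47 in Ly6cHi Mono. Every monocyte array lay far below every macrophage array, and within the macrophages the arrays of neighbouring groups overlapped while those of CCR2+ Mac and MHC-IIlo Mac did not. Against Ly6cHi Mono, Maf was higher by 3.11 ± 0.24 in CCR2+ Mac, 3.75 ± 0.24 in MHC-IIHi Mac and 4.11 ± 0.24 in MHC-IIlo Mac, or 8.65-fold, 13.5-fold and 17.2-fold. Among macrophages, Maf differed by -0.64 ± 0.24 between CCR2+ Mac and MHC-IIHi Mac, and by -0.99 ± 0.24 between CCR2+ Mac and MHC-IIlo Mac. The slides gave -0.83 to -0.27 for the first of these differences and -1.19 to -0.74 for the second. The first passed with array weights (-0.74). The second passed, and it no longer did under normexp background correction, median scaling or a fit to these 2 groups alone, or without CCR2+ Mac replicate 2, 3 or 4 or MHC-IIlo Mac replicate 1, 3 or 4. MHC-IIHi Mac and MHC-IIlo Mac differed by -0.35 ± 0.24 and their arrays overlapped.

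A second Maf probe, A_55_P1962429, ordered the groups in the same way. It read 0.68, 0.85, 1.29 and 1.08 in CCR2+ Mac, 2.11, 1.79, 2.23 and 1.78 in MHC-IIHi Mac and 2.34, 1.90, 1.94 and 2.27 in MHC-IIlo Mac. In Ly6cHi Mono it read -2.68, -3.45, -3.80 and -2.49, and only 2 of these 4 arrays were well above background. On this probe CCR2+ Mac did not overlap with MHC-IIHi Mac (-1.0 ± 0.27) or with MHC-IIlo Mac (-1.14 ± 0.27).

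Id3 had the same split between macrophages and monocytes but no such order within the macrophages. It read 1.67, 1.14, 1.74 and 0.94 in CCR2+ Mac and 1.24, 1.25, 0.64 and 0.81 in MHC-IIHi Mac. It read 1.14, 0.93, 2.11 and 1.16 in MHC-IIlo Mac and -1.03, -1.72, -0.89 and -0.56 in Ly6cHi Mono. The macrophage groups overlapped with each other and none overlapped with monocytes. The differences from Ly6cHi Mono were 2.42 ± 0.30 in CCR2+ Mac, 2.04 ± 0.30 in MHC-IIHi Mac and 2.38 ± 0.30 in MHC-IIlo Mac. Between macrophage groups they were at most 0.39 ± 0.30 in size, found between CCR2+ Mac and MHC-IIHi Mac, where the 95% interval was -0.26 to 1.04.

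Klf4 followed Maf and Id3 with smaller differences. It read 1.10, 0.75, 1.25 and 0.67 in CCR2+ Mac and 1.15, 1.22, 1.14 and 0.80 in MHC-IIHi Mac. It read 1.61, 1.53, 1.81 and 0.92 in MHC-IIlo Mac and 0.48, 0.26, 0.64 and -0.10 in Ly6cHi Mono. All macrophage arrays lay above all monocyte arrays, and replicate 4 was the lowest in all 4 groups. Klf4 was higher than in Ly6cHi Mono by 1.15 ± 0.23 in MHC-IIlo Mac and 0.76 ± 0.23 in MHC-IIHi Mac, which both passed, and by 0.62 ± 0.23 in CCR2+ Mac, which passed with the replicate as a block (0.62 ± 0.13), under normexp background correction and with quantile normalization. The MHC-IIHi Mac difference missed the threshold under median scaling and without MHC-IIHi Mac replicate 1, 2 or 3 or Ly6cHi Mono replicate 2 or 4. CCR2+ Mac and MHC-IIlo Mac differed by -0.53 ± 0.23, and this passed with the replicate as a block (-0.53 ± 0.13), with slides from -0.79 to -0.25.

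Maf, Id3 and Klf4 were all higher in macrophages, and the stretches before the start sites of Klf4 and Id3 are shown from RefSeq, build GRCm38.p6, to set these genes side by side. Each runs 5′ to 3′ over the 250 bases before the start site, Klf4 at chr4:55532476-55532725 on the minus strand and Id3 at chr4:136143572-136143821 on the plus strand. Capitals mark matches to the motifs searched.
Klf4: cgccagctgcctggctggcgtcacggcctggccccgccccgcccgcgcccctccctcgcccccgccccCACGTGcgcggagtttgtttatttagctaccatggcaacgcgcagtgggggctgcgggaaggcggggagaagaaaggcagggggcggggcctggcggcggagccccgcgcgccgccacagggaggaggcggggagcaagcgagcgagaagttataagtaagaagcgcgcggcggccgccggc
Id3: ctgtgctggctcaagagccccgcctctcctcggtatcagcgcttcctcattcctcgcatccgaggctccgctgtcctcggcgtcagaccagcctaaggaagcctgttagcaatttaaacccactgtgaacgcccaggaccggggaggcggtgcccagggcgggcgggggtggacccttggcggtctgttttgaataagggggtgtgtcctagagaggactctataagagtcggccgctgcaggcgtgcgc
The Klf4 window holds 1 CACGTG, the E-box that Bhlhe40 and other basic helix-loop-helix proteins can bind, at position -182 where the first transcribed base is 0. This motif was present in 7.15% of all 32851 promoter windows of 300 bases. The Id3 window holds none of the motifs searched. Bases G and C made up 74% of the Klf4 window and 62.8% of the Id3 window, against a median of 52.4% over all promoters. A match is a description of these letters and not a binding site.

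**Figure D1:**
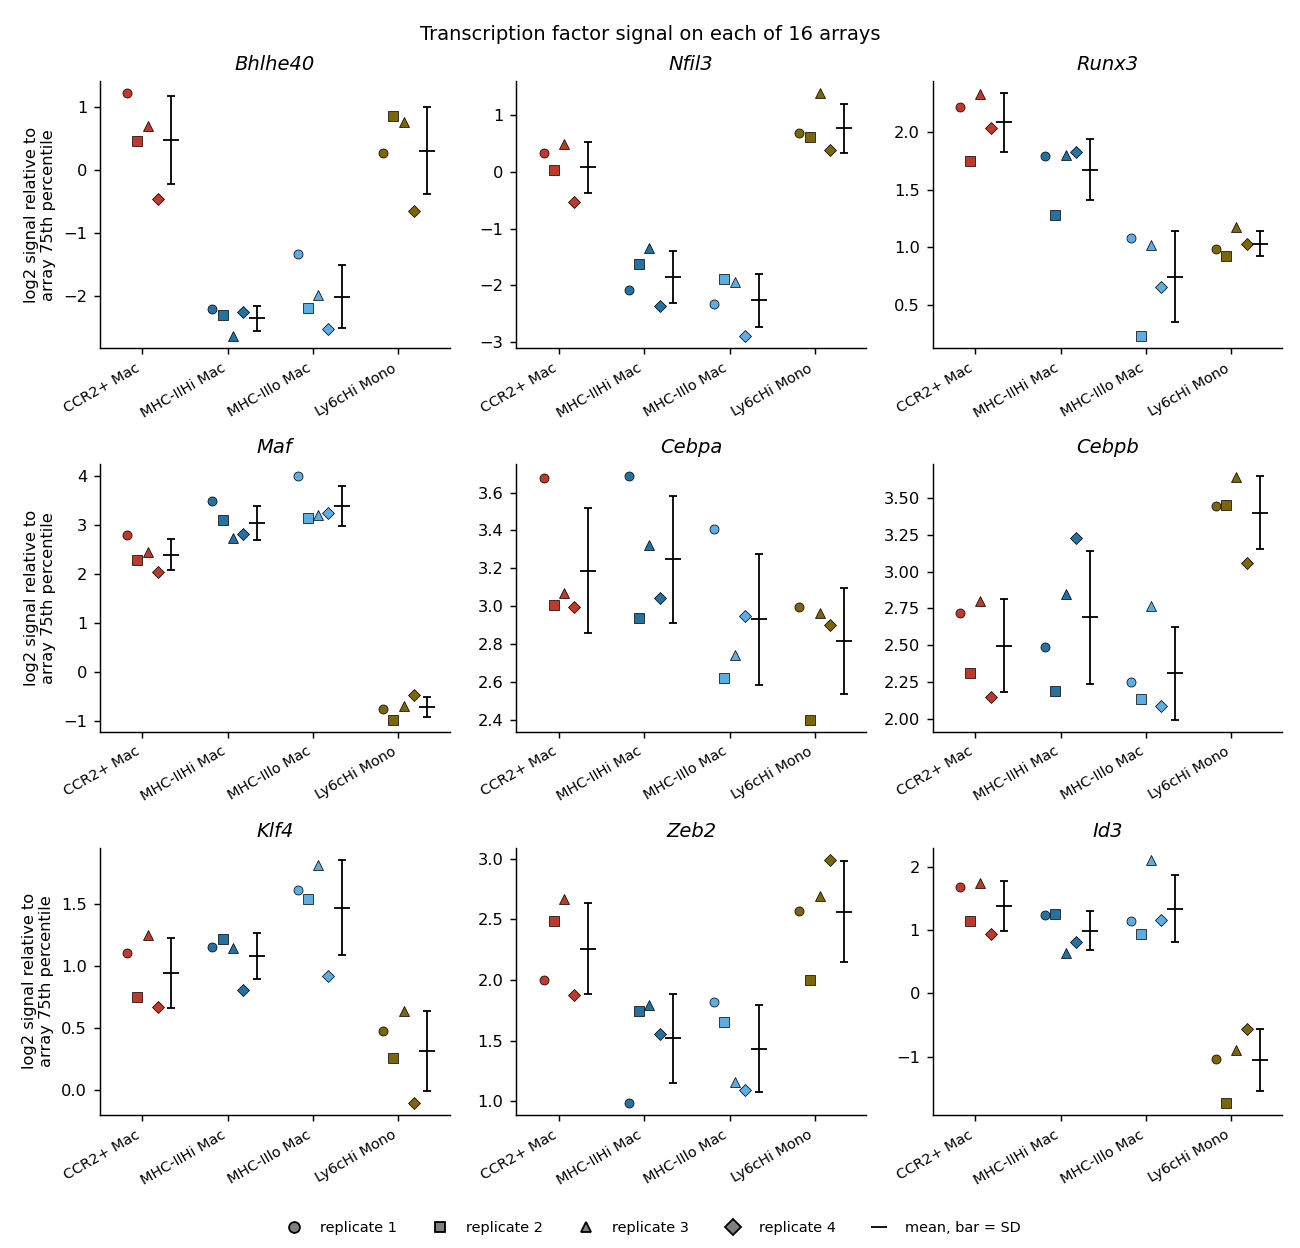
Log2 signal relative to the array's 75th percentile (y axis) for the 9 transcription factors on each of the 16 arrays, by sorted group (x axis). Symbols are replicates 1 to 4, and the black dash and bar are the group mean and SD (n = 4). Bhlhe40 and Nfil3 are high in CCR2+ Mac and Ly6cHi Mono, and Maf, Id3 and Klf4 are low in Ly6cHi Mono.

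Bhlhe40 and Nfil3 had a different arrangement, high in CCR2+ Mac and in monocytes and low in both CCR2-negative macrophage groups. Bhlhe40 read 1.22, 0.46, 0.69 and -0.45 in CCR2+ Mac and -2.20, -2.30, -2.63 and -2.24 in MHC-IIHi Mac. It read -1.33, -2.19, -1.97 and -2.52 in MHC-IIlo Mac and 0.27, 0.86, 0.76 and -0.65 in Ly6cHi Mono. CCR2+ Mac and monocyte arrays lay within the same range, and each lay wholly above the 2 CCR2-negative groups, which overlapped with each other. Bhlhe40 was 7.08-fold higher in CCR2+ Mac than in MHC-IIHi Mac (2.82 ± 0.37) and 5.59-fold higher than in MHC-IIlo Mac (2.48 ± 0.37). The slides gave 1.79 to 3.42 and 2.07 to 2.66 for these differences. Compared with Ly6cHi Mono, Bhlhe40 was lower in MHC-IIHi Mac (-2.65 ± 0.37) and MHC-IIlo Mac (-2.31 ± 0.37). CCR2+ Mac and Ly6cHi Mono differed by 0.17 ± 0.37, with a 95% interval of -0.63 to 0.97 and a split of 2 slides each way.

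Nfil3 read 0.33, 0.03, 0.50 and -0.54 in CCR2+ Mac and -2.09, -1.62, -1.35 and -2.36 in MHC-IIHi Mac. It read -2.34, -1.88, -1.94 and -2.90 in MHC-IIlo Mac and 0.69, 0.62, 1.39 and 0.38 in Ly6cHi Mono. The order was monocytes, CCR2+ Mac, MHC-IIHi Mac and MHC-IIlo Mac, and only the step between CCR2+ Mac and MHC-IIHi Mac was free of overlap. As with Klf4, replicate 4 was the lowest in all 4 groups. Nfil3 was higher in CCR2+ Mac than in MHC-IIHi Mac by 1.93 ± 0.31, or 3.82-fold, and than in MHC-IIlo Mac by 2.35 ± 0.31, or 5.08-fold. Compared with Ly6cHi Mono it was lower by -2.62 ± 0.31 in MHC-IIHi Mac and by -3.04 ± 0.31 in MHC-IIlo Mac. For CCR2+ Mac the difference from Ly6cHi Mono was -0.69 ± 0.31, negative on 4 of 4 slides, and it passed with the replicate as a block (-0.69 ± 0.16) and under normexp background correction.

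Nfil3, with a large difference among macrophages, has 1 RefSeq window, at chr13:52981040-52981289 on the minus strand of GRCm38.p6. It is shown because Nfil3 differed among the macrophage groups.
Nfil3: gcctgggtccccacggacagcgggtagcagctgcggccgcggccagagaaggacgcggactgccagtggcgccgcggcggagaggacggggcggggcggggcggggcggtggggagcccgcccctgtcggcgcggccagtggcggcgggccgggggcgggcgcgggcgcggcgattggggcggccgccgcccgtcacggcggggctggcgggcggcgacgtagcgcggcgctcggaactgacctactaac
It holds none of the motifs searched and is 81.6% G and C. The motifs were CACGTG (E-box), CACCTG (E-box of the Zeb class), TTACGTAA (Nfil3), TTGCGCAA and TTGCNNCAA (both searched as C/EBP), TGTGGT (RUNX), TGCTGA (part of a Maf site), CCCCACCC (KLF) and TGACGTCA (cyclic AMP response), all on both strands. TTGCNNCAA is longer than TTGCGCAA and does not match it. They were searched in the 11 windows of 300 bases found for 7 of the 9 factors, where the 4 Zeb2 windows include overlapping ones. CCCCACCC was in 3 of the 11 windows and in 9.99% of all promoters, and TTACGTAA was in 0 of 11 and in 0.119% of all.

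Runx3 was ordered by MHCII in the macrophages. It read 2.22, 1.75, 2.33 and 2.03 in CCR2+ Mac and 1.79, 1.28, 1.80 and 1.83 in MHC-IIHi Mac, both of which were sorted as MHCII-high. It read 1.08, 0.22, 1.02 and 0.66 in MHC-IIlo Mac and 0.98, 0.92, 1.18 and 1.03 in Ly6cHi Mono. The 2 MHCII-high groups overlapped with each other and lay wholly above MHC-IIlo Mac and monocytes, which overlapped in turn. Replicate 2 was the lowest in all 4 groups. Runx3 was higher in CCR2+ Mac than in MHC-IIlo Mac by 1.34 ± 0.21 and than in Ly6cHi Mono by 1.06 ± 0.21. It was also higher in MHC-IIHi Mac than in MHC-IIlo Mac by 0.93 ± 0.21, with slides from 0.71 to 1.17, and this passed only with the replicate as a block (0.93 ± 0.13). The difference of 0.65 ± 0.21 between MHC-IIHi Mac and Ly6cHi Mono passed, and it did not with median scaling, no filter on dim probes, the mean of all probes, array weights or a fit to the 2 groups. It also missed the threshold without any 1 of the monocyte replicates or of MHC-IIHi Mac replicates 1, 3 and 4. CCR2+ Mac and MHC-IIHi Mac differed by 0.41 ± 0.21, and MHC-IIlo Mac and Ly6cHi Mono by -0.28 ± 0.21.

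The other Runx3 probe, A_55_P2130895, read 0.57, -0.16, 0.68 and 0.05 in CCR2+ Mac and 0.29, -0.50, 0.19 and -0.26 in MHC-IIHi Mac. It read -0.83, -1.69, -1.49 and -1.63 in MHC-IIlo Mac and -0.36, -0.34, 0.02 and -0.52 in Ly6cHi Mono. On it MHC-IIlo Mac lay below all other groups, monocytes included, and differed from Ly6cHi Mono by -1.11 ± 0.26. Its difference between MHC-IIHi Mac and Ly6cHi Mono was 0.23 ± 0.26, so the 2 probes part on where monocytes stand.

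Runx3 has a distal and a proximal start site, and the distal window, at chr4:135120395-135120644 on the plus strand of GRCm38.p6, is shown because it holds matches to the motif of Runx3's own family.
Runx3, distal: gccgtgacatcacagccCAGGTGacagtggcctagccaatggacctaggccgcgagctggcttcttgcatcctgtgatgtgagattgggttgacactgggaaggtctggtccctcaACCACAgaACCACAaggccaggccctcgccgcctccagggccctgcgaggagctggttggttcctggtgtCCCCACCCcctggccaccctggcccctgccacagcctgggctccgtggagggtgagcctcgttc
TGTGGT, here as ACCACA on the other strand, occurs at positions -134 and -126, and at least 1 copy was present in 16.8% of all promoters. The window also holds 1 CACCTG and 1 CCCCACCC. No probe here tells the distal from the proximal start site.

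Cebpa varied little between the groups. It read 3.68, 3.00, 3.07 and 2.99 in CCR2+ Mac and 3.69, 2.94, 3.32 and 3.04 in MHC-IIHi Mac. It read 3.41, 2.62, 2.74 and 2.95 in MHC-IIlo Mac and 2.99, 2.40, 2.96 and 2.90 in Ly6cHi Mono. Replicate 1 was the highest in all 4 groups, and neighbouring groups overlapped throughout. No Cebpa difference passed: between macrophage groups they ran from -0.06 ± 0.24 to 0.32 ± 0.24. The difference between MHC-IIHi Mac and Ly6cHi Mono was 0.43 ± 0.24 and passed with the replicate as a block (0.43 ± 0.14) and with quantile normalization. That between CCR2+ Mac and Ly6cHi Mono was 0.37 ± 0.24, and it passed with quantile normalization. Arrays of these 2 groups did not overlap but nearly met, at 2.9935 for the lowest CCR2+ Mac array and 2.9929 for the highest monocyte array. MHC-IIlo Mac and Ly6cHi Mono differed by 0.12 ± 0.24, with a 95% interval of -0.40 to 0.63.

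Cebpb was higher in monocytes than in macrophages. It read 2.72, 2.31, 2.80 and 2.14 in CCR2+ Mac and 2.49, 2.19, 2.85 and 3.23 in MHC-IIHi Mac. It read 2.25, 2.13, 2.77 and 2.08 in MHC-IIlo Mac and 3.45, 3.46, 3.65 and 3.06 in Ly6cHi Mono. MHC-IIHi Mac replicate 4 was the macrophage array that reached into the monocyte range, and the other macrophage groups lay wholly below it. Cebpb was lower than in Ly6cHi Mono by -0.91 ± 0.25 in CCR2+ Mac and by -1.10 ± 0.25 in MHC-IIlo Mac, which both passed. The CCR2+ Mac call was lost with quantile normalization (-0.60) and without CCR2+ Mac replicate 4 (-0.79). In MHC-IIHi Mac the difference was -0.71 ± 0.25, which passed with the replicate as a block (-0.71 ± 0.21), without MHC-IIHi Mac replicate 4 (-0.90) and without Ly6cHi Mono replicate 4 (-0.83). Between macrophage groups Cebpb differed by at most 0.38 ± 0.25 in size, between MHC-IIHi Mac and MHC-IIlo Mac.

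Zeb2 was measured by 3 probes that did not give the same picture. The brightest probe, A_55_P2119388, read 2.00, 2.48, 2.67 and 1.88 in CCR2+ Mac and 0.99, 1.74, 1.79 and 1.56 in MHC-IIHi Mac. It read 1.82, 1.66, 1.16 and 1.10 in MHC-IIlo Mac and 2.57, 2.00, 2.69 and 2.99 in Ly6cHi Mono. On it CCR2+ Mac and monocytes overlapped and lay wholly above the CCR2-negative groups, the arrangement seen for Bhlhe40 and Nfil3. Zeb2 was lower than in Ly6cHi Mono by -1.04 ± 0.27 in MHC-IIHi Mac and by -1.13 ± 0.27 in MHC-IIlo Mac, which both passed. CCR2+ Mac differed from MHC-IIHi Mac by 0.74 ± 0.27 and from MHC-IIlo Mac by 0.82 ± 0.27 without passing, and the second of these passed with array weights (0.92). With the mean of all kept probes the MHC-IIHi Mac difference from monocytes was -0.47 and did not pass.

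On the Zeb2 probe A_52_P596008 no group mean differed from another by more than 0.31, and CCR2+ Mac lay above Ly6cHi Mono by 0.11 ± 0.15. On A_52_P526372 the largest difference, between MHC-IIlo Mac and Ly6cHi Mono, was -0.52 ± 0.27, and CCR2+ Mac and MHC-IIHi Mac differed by -0.20 ± 0.27. The gap between CCR2+ Mac and the CCR2-negative groups was thus large on the brightest probe only. On A_52_P596008 it had the same direction and was smaller, 0.25 ± 0.15 from MHC-IIHi Mac and 0.31 ± 0.15 from MHC-IIlo Mac. There the CCR2+ Mac arrays overlapped with MHC-IIHi Mac but not with MHC-IIlo Mac. On A_52_P526372 the difference from MHC-IIlo Mac was 0.12 ± 0.27. All 3 probes were well above background on all 16 arrays.

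**Figure D2:**
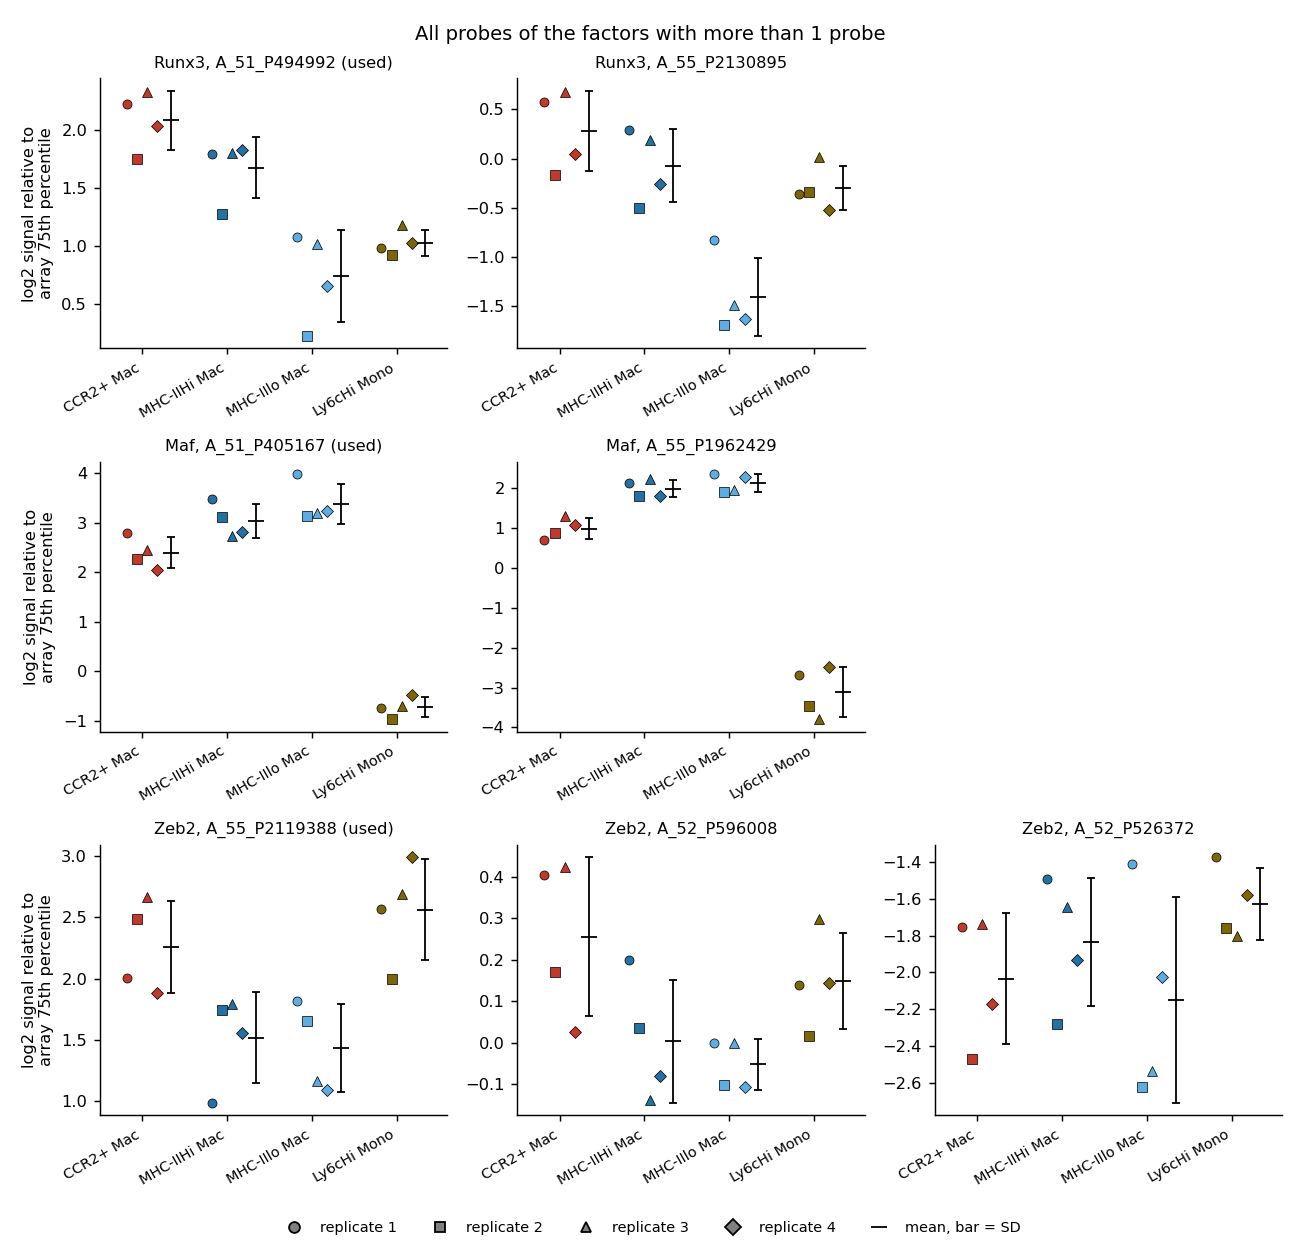
Log2 signal relative to the array's 75th percentile (y axis) for every probe of Runx3, Maf and Zeb2 by sorted group (x axis), with replicates as symbols and mean ± SD in black (n = 4). The 2 Maf probes give the same order of groups, while the 3 Zeb2 probes do not.

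By comparison, 2 of the 9 factors passed between CCR2+ Mac and MHC-IIHi Mac, Bhlhe40 and Nfil3, where 1.26% of all genes did. Between CCR2+ Mac and MHC-IIlo Mac 4 passed, where 2.81% of all genes did, with Bhlhe40, Nfil3 and Runx3 higher and Maf lower. No factor passed between MHC-IIHi Mac and MHC-IIlo Mac in limma, where 0.0724% of all genes did, and 1 had an unadjusted p under 0.05. Against Ly6cHi Mono, 4 passed in CCR2+ Mac, 7 in MHC-IIHi Mac and 7 in MHC-IIlo Mac, where 21.9%, 21.6% and 21.5% of all genes did. With the replicate as a block, 2 factors passed in CCR2+ Mac against MHC-IIHi Mac, 5 in CCR2+ Mac against MHC-IIlo Mac and 1 in MHC-IIHi Mac against MHC-IIlo Mac, where 2.51%, 5.75% and 0.348% of all genes did. Against Ly6cHi Mono the block gave 6 in CCR2+ Mac, 9 in MHC-IIHi Mac and 7 in MHC-IIlo Mac, where 33.8%, 31.7% and 32.2% of all genes passed. Arrays did not overlap for 3, 5 and 1 of the 9 factors between macrophages, where 7.82%, 8.26% and 2.35% of all genes did not. Against Ly6cHi Mono this held for 6, 7 and 7, where it held for 25.2%, 22.7% and 23.1% of all genes. The factors were chosen from these comparisons, so nothing is read from the shares. The median difference of the 9 against Ly6cHi Mono was 0.37 in CCR2+ Mac, 0.43 in MHC-IIHi Mac and -0.28 in MHC-IIlo Mac, beside -0.10, -0.05 and -0.06 over all genes. Comparisons that share a group are not independent of each other.

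**Figure D3:**
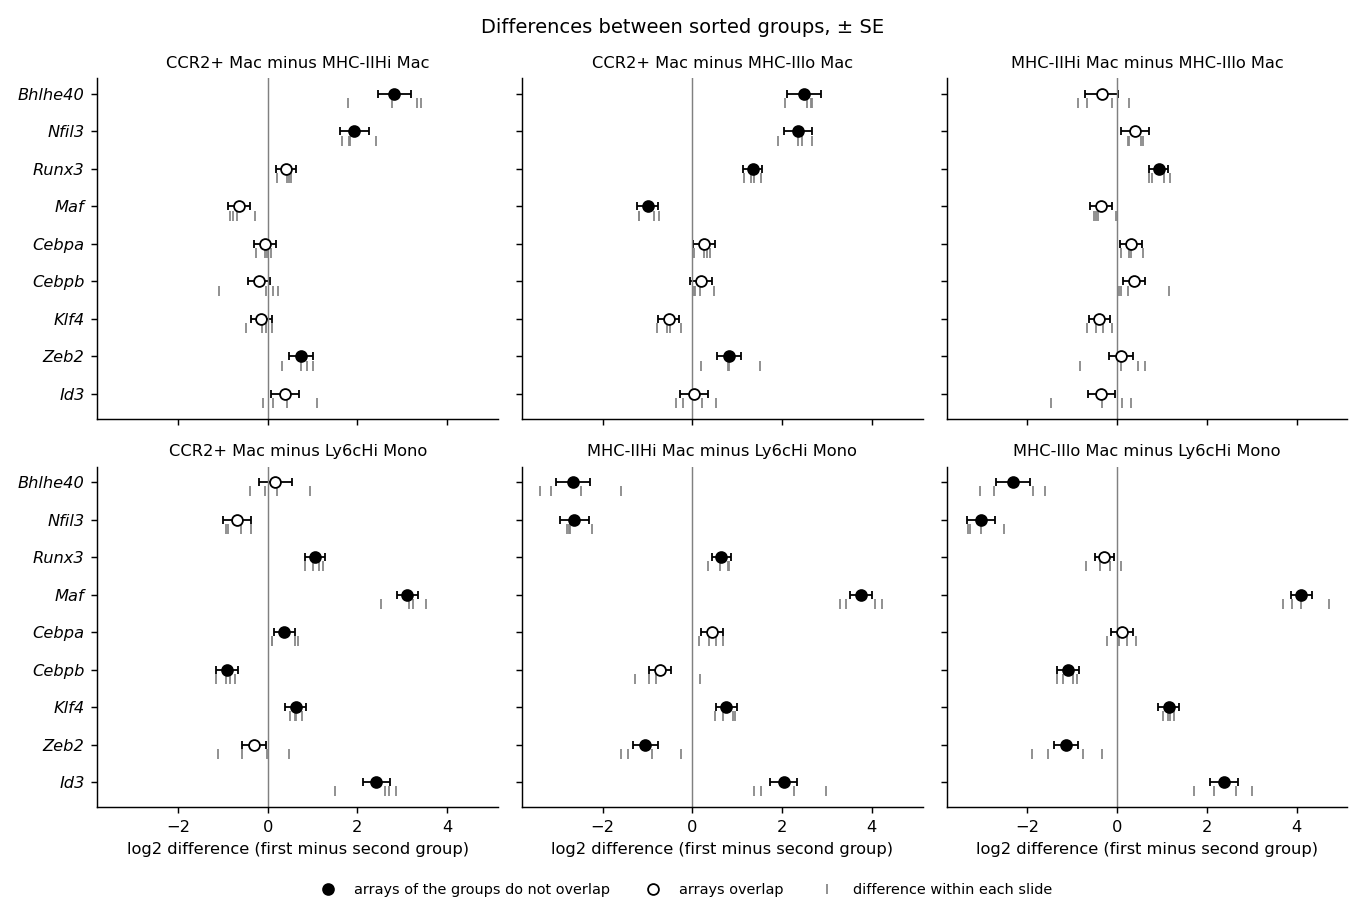
Log2 differences ± SE (x axis, first minus second group) of the 9 factors (y axis) in the 6 comparisons. Filled circles mark pairs of groups whose arrays do not overlap, open circles those that overlap, and grey ticks the difference within each of the 4 slides. Runx3 has the 1 filled circle between MHC-IIHi Mac and MHC-IIlo Mac.

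Genes with the most similar profiles were taken as the 3 with the highest Pearson correlation with each factor over the 16 arrays. The arrays fall into 4 groups and share 4 slides, so these correlations follow the group means and carry no p-value. Maf was most like Igf1 (r = 0.993), an insulin-like growth factor, the receptor Gpr34 (r = 0.992) and B3galnt1 (r = 0.989). Nfil3 was most like Ear12 (r = 0.971), Ear1 (r = 0.969) and Ear2 (r = 0.963), ribonucleases whose close relatives may share probes. The 3 genes nearest Runx3 included H2-DMb1 (r = 0.912), a chain of the molecule that loads peptides onto MHCII, with 1700025G04Rik and Stbd1 beside it. Bhlhe40 was nearest to Gm14548 (r = 0.931), Pira11 and Iqgap1, and Zeb2 to Ifi214 (r = 0.925), Krr1 and Mettl25. Id3 was nearest to Tulp4 (r = 0.957), Pdlim7 and Cbx1, and Klf4 to Tbc1d14 (r = 0.947), Snx6 and H2bc4. Cebpa was nearest to Mrps5 (r = 0.917), H2-M3 and A730008H23Rik, and Cebpb to Nab1 (r = 0.925), Plxdc1 and Ldhb.

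Of 37 other myeloid factors listed, 30 were tested and the rest were not analysed here. Spic, an Ets factor of red pulp macrophages, was lower in CCR2+ Mac than in both CCR2-negative groups. It read -0.72, -0.26, -0.55 and -0.03 in CCR2+ Mac, 0.42, 0.94, 0.61 and 0.35 in MHC-IIHi Mac and 0.61, 0.70, 0.47 and 0.23 in MHC-IIlo Mac. None of the CCR2+ Mac arrays reached the other macrophage arrays, and limma gave -0.97 ± 0.21 (adjusted p = 0.0323) against MHC-IIHi Mac and -0.89 ± 0.21 (adjusted p = 0.0306) against MHC-IIlo Mac. Batf3, a dendritic cell factor, was higher in CCR2+ Mac than in MHC-IIlo Mac (1.03 ± 0.24, adjusted p = 0.0257), and Tfec, of the Mitf family, was lower there (-2.06 ± 0.48, adjusted p = 0.0284). Tfec was well above background on 2 of 4 CCR2+ Mac arrays. Nr4a2, an orphan nuclear receptor, was higher in CCR2+ Mac than in MHC-IIHi Mac (2.04 ± 0.46, adjusted p = 0.0439), although the arrays overlapped. These 5 differences were called under 6 to 8 of the 16 alternatives each, with adjusted p up to 0.15. With the replicate as a block, 3 of the list were higher and 1 lower in CCR2+ Mac against MHC-IIHi Mac, and 6 higher and 3 lower against MHC-IIlo Mac. With this block 2.51% and 5.75% of all genes passed there. Between MHC-IIHi Mac and MHC-IIlo Mac limma called 0 of the 30 and 0.0724% of all genes, and 4 of the list had an unadjusted p under 0.05.

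Against monocytes, the same list of 30 tested gave 7 higher and 4 lower in CCR2+ Mac, 6 and 5 in MHC-IIHi Mac and 7 and 6 in MHC-IIlo Mac. Over all genes 21.9%, 21.6% and 21.5% were called in these comparisons. The medians of the list were 0.19, 0.07 and 0.05. Ets2, an Ets factor, was higher by 3.70 ± 0.24, 4.18 ± 0.24 and 4.10 ± 0.24 (adjusted p = 3.49e-08, 6.52e-09 and 6.83e-09), on 4 of 4 slides each. Myc, a growth-promoting factor, was higher by 3.89 ± 0.45, 3.84 ± 0.45 and 3.14 ± 0.45 (adjusted p = 1.61e-05, 1.31e-05 and 9.19e-05), with 1 of 4 monocyte arrays well above background. Nfe2, known from megakaryocytes and red cell precursors, was lower by -4.48 ± 0.71, -5.98 ± 0.71 and -5.44 ± 0.71 (adjusted p = 0.00031, 1.53e-05 and 3.95e-05). Bcl6, a repressor, was lower by -0.94 ± 0.24, -1.05 ± 0.24 and -1.63 ± 0.24 (adjusted p = 0.00961, 0.00429 and 0.000108). These values are for CCR2+ Mac, MHC-IIHi Mac and MHC-IIlo Mac in that order, each minus Ly6cHi Mono. Nfe2 read -1.93, 1.78, -1.27 and -1.82 in CCR2+ Mac, so replicate 2 stood far above the other arrays of that group. It was still below the lowest monocyte array, at 3.31. Bcl6 in CCR2+ Mac missed the threshold with quantile normalization (adjusted p = 0.0649).

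Among family relatives and binding partners of the 9 factors, limma called 0 of 33 tested in each of the 3 comparisons between macrophage groups. Over all genes 1.26%, 2.81% and 0.0724% were called there, so nothing is read from 0 of 33. At an unadjusted p under 0.05 there were 2, 6 and 2. With the replicate as a block 1 was higher in CCR2+ Mac against MHC-IIHi Mac, and 1 higher and 3 lower against MHC-IIlo Mac. With this block 2.51% and 5.75% of all genes passed in these 2 comparisons. Against Ly6cHi Mono, 8 were higher and 4 lower in CCR2+ Mac, 8 and 3 in MHC-IIHi Mac and 9 and 2 in MHC-IIlo Mac, with medians of 0.08, 0.10 and 0.19. Over all genes 21.9%, 21.6% and 21.5% were called against monocytes. Runx1, a relative of Runx3, was higher by 1.59 ± 0.21 in CCR2+ Mac (adjusted p = 6.4e-05) and 2.02 ± 0.21 in MHC-IIHi Mac (adjusted p = 4.16e-06). In MHC-IIlo Mac Runx1 was also higher, by 1.10 to 1.58 over the 16 alternatives, and was called under all of them. Ddit3, a stress-induced C/EBP relative, was higher by 1.69 ± 0.23, 1.98 ± 0.23 and 1.62 ± 0.23 (adjusted p = 9.84e-05, 1.53e-05 and 0.000104) in CCR2+ Mac, MHC-IIHi Mac and MHC-IIlo Mac. In the Klf family members went both ways: Klf7 was higher by 1.53 ± 0.14 in CCR2+ Mac (adjusted p = 2.03e-06) and 1.72 ± 0.14 in MHC-IIlo Mac (adjusted p = 3.31e-07). In MHC-IIHi Mac Klf7 was also higher, by 1.66 to 1.92 over the 16 alternatives, and was called under all of them. Klf13 was lower by -1.17 ± 0.22, -1.11 ± 0.22 and -1.25 ± 0.22 (adjusted p = 0.0013, 0.00179 and 0.000658), and Klf10 by -1.23 ± 0.34, -1.52 ± 0.34 and -1.30 ± 0.34 (adjusted p = 0.0162, 0.00394 and 0.0108). The Klf10 arrays of CCR2+ Mac overlapped with those of monocytes, and the call was lost without CCR2+ Mac replicate 4 (adjusted p = 0.0517). Klf9 was higher in MHC-IIlo Mac (2.51 ± 0.46, adjusted p = 0.000822) and MHC-IIHi Mac (2.04 ± 0.46, adjusted p = 0.00438), with 1 of 4 monocyte arrays well above background, and the MHC-IIHi Mac call was lost under normexp background correction (adjusted p = 0.165). Klf9 was also called higher in CCR2+ Mac, a call kept under 5 of 16 alternatives.

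Of 12 listed genes that the factors are known to regulate in some cell type, 6 were tested. Nr4a1, a nuclear receptor whose expression depends on Cebpb in monocytes, was lower than in Ly6cHi Mono in MHC-IIHi Mac (-1.07 ± 0.31, adjusted p = 0.0209) and MHC-IIlo Mac (-1.54 ± 0.31, adjusted p = 0.00184). The MHC-IIHi Mac call was lost without MHC-IIHi Mac replicate 4 or Ly6cHi Mono replicate 2 or 3, with an adjusted p of at most 0.069. No other gene of the list passed in any comparison, and limma called 0 of the 6 in each comparison between macrophages, with 1, 2 and 0 at an unadjusted p under 0.05. Over all genes 1.26%, 2.81% and 0.0724% were called between macrophages. Against Ly6cHi Mono 21.9%, 21.6% and 21.5% were, and nothing is read from the counts of so few genes. With the replicate as a block 1 was higher in CCR2+ Mac against each CCR2-negative group, where 2.51% and 5.75% of all genes passed.

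Clock genes form the network to which Bhlhe40 and Nfil3 belong. Of 19 listed, 16 were tested, and limma called 0 of the 16 in each comparison between macrophages, with 1, 3 and 0 at an unadjusted p under 0.05 and 0 with the replicate as a block. Over all genes 1.26%, 2.81% and 0.0724% were called there, and 2.51%, 5.75% and 0.348% with the block. Nothing is read from 0 of 16 beside these shares. Arntl, the activator that pairs with Clock, differed by -1.79 ± 0.53 between CCR2+ Mac and MHC-IIHi Mac and by -1.81 ± 0.53 between CCR2+ Mac and MHC-IIlo Mac (adjusted p = 0.163 and 0.102), and 1 of 4 CCR2+ Mac arrays was well above background. Against Ly6cHi Mono, 3 were higher and 0 lower in CCR2+ Mac, 6 and 0 in MHC-IIHi Mac and 7 and 0 in MHC-IIlo Mac, with medians of 0.27, 0.53 and 0.74. Over all genes 21.9%, 21.6% and 21.5% were called there, and 3 of 16 in CCR2+ Mac lies near that share. With the replicate as a block 6, 8 and 8 clock genes were higher, where 33.8%, 31.7% and 32.2% of all genes passed.

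Per1, a repressor arm gene of the clock that also responds quickly to stimuli, read 3.19, 2.88, 3.19 and 2.83 in CCR2+ Mac and -0.63, -0.60, 0.21 and 0.96 in Ly6cHi Mono. It was higher in CCR2+ Mac, MHC-IIHi Mac and MHC-IIlo Mac than in monocytes by 3.04 ± 0.32, 2.61 ± 0.32 and 2.33 ± 0.32 (adjusted p = 5.8e-06, 1.86e-05 and 5.62e-05). No monocyte array had Per3 well above background, and it was at least 3.93-fold, 4.72-fold and 3.86-fold higher in the same 3 groups (adjusted p = 0.000175, 5.3e-05 and 0.000143), and the MHC-IIlo Mac call was lost under normexp background correction (adjusted p = 0.0554). Arntl, likewise dim on all monocyte arrays, was at least 1.38-fold higher in MHC-IIHi Mac and 1.40-fold higher in MHC-IIlo Mac (adjusted p = 0.0226 and 0.0204), each called under 10 of 16 alternatives. Nr1d1, a heme-binding repressor of Arntl and Nfil3, was higher by 1.12 ± 0.34 in CCR2+ Mac and 1.99 ± 0.34 in MHC-IIlo Mac (adjusted p = 0.0298 and 0.000536). Its CCR2+ Mac call held under 9 of 16 alternatives, with adjusted p up to 0.0766. Nr1d1 was also higher in MHC-IIHi Mac, by 1.30 to 2.08 over the 16 alternatives, and was called under all of them. No time of day of collection is given in the labels, and its part in these differences was not tested.

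**Figure D4:**
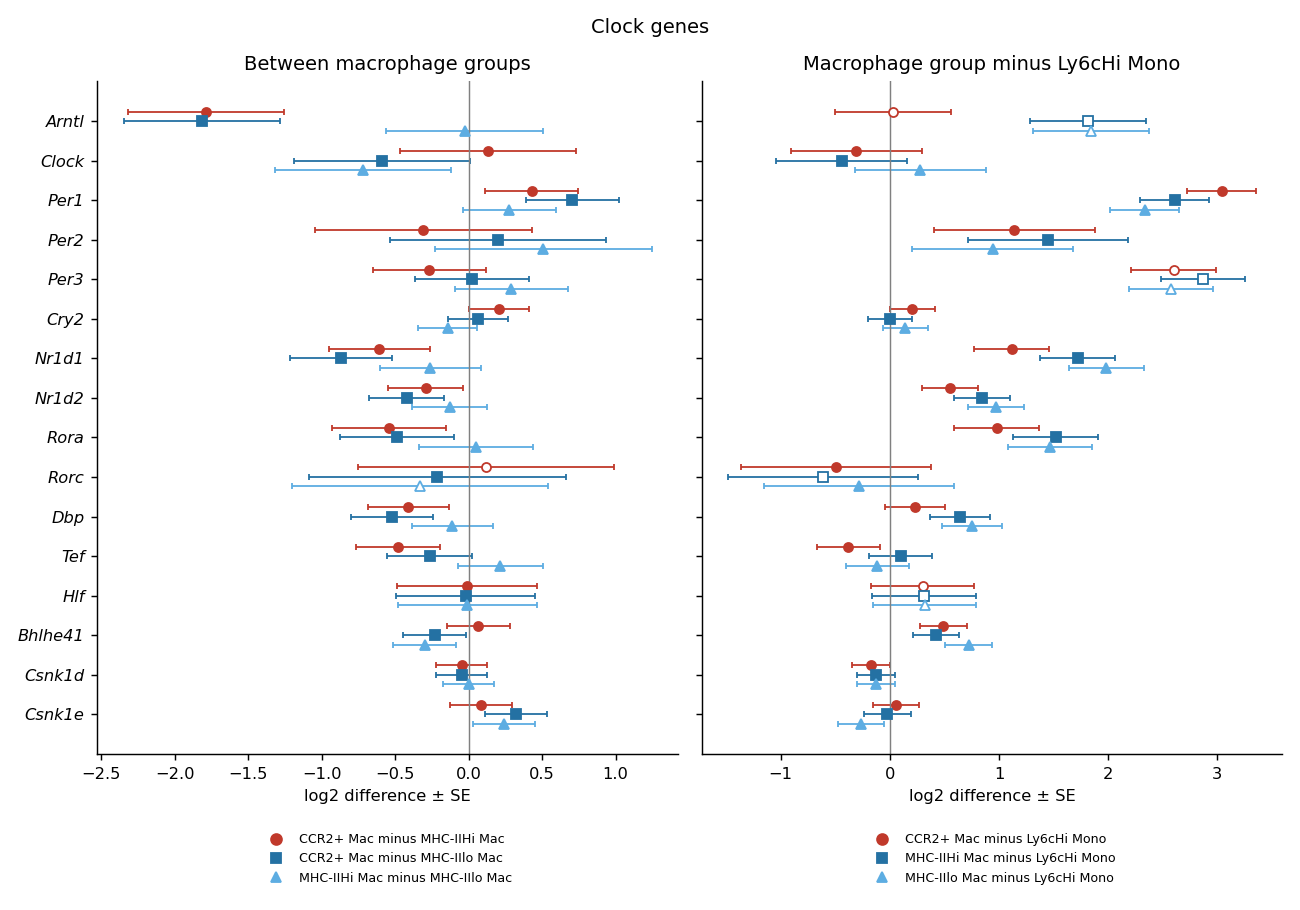
Log2 differences ± SE (x axis) of the 16 clock genes tested (y axis), between macrophage groups on the left and against Ly6cHi Mono on the right. Open symbols mark genes not well above background on any array of 1 of the 2 groups compared, whose fold has only a lower bound. Per1 and Per3 lie far to the right of 0 against monocytes.

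Other transcripts moved together with the differences from monocytes. Of 10 tested genes that respond to tissue dissociation, 10 were higher in each macrophage group than in Ly6cHi Mono. Between macrophage groups, where 1.26%, 2.81% and 0.0724% of all genes were called, 0 of the 10 were, and 0, 1 and 0 had an unadjusted p under 0.05. Their summed signal, in units of the array's 75th percentile, ran from 152 to 219 in CCR2+ Mac, 173 to 234 in MHC-IIHi Mac and 145 to 212 in MHC-IIlo Mac, against 16.4 to 28.5 in Ly6cHi Mono. Egr1 was higher by 5.70 ± 0.25 in CCR2+ Mac (adjusted p = 6e-10), with 2 of 4 monocyte arrays well above background. Cardiomyocyte markers summed to 14.2 to 21.7 in CCR2+ Mac, 17.7 to 25.6 in MHC-IIHi Mac and 16.1 to 24.9 in MHC-IIlo Mac, against 2.19 to 2.71 in Ly6cHi Mono, where Tnnt2 and Actc1 were not well above background on any array. Of the 7, 6 were higher in CCR2+ Mac and 7 in each CCR2-negative group. Fibroblast markers gave 3 of 5 in each macrophage group against monocytes, where 21.9%, 21.6% and 21.5% of all genes were called. Endothelial markers gave 3 of 5 higher in CCR2+ Mac and 2 of 5 in each CCR2-negative group, beside the same shares. Of these, 1 call in CCR2+ Mac and 0 in each CCR2-negative group held under all alternatives. Of 5 neutrophil markers tested, 2 were called in CCR2+ Mac against monocytes, Ly6g higher and Retnlg lower. The part of these transcripts in the differences of Maf, Id3, Klf4, Runx3, Cebpb, Zeb2 and the clock genes from monocytes was not tested.

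Of 6 dendritic cell markers tested, 2 were higher in CCR2+ Mac than in MHC-IIHi Mac and 3, Batf3 included, than in MHC-IIlo Mac, as Bhlhe40 and Nfil3 were. Over all genes 1.26% and 2.81% were called in these comparisons. Cd209a was higher by 2.74 ± 0.62 (adjusted p = 0.0432) and 2.53 ± 0.62 (adjusted p = 0.0396), and Dpp4 by 1.83 ± 0.30 (adjusted p = 0.00571) and 1.33 ± 0.30 (adjusted p = 0.0259). Both were dim in the CCR2-negative groups: Cd209a was well above background on 1 of 4 MHC-IIHi Mac and 2 of 4 MHC-IIlo Mac arrays, and Dpp4 on 2 of 4 and 3 of 4. Both were also called lower in each CCR2-negative group than in Ly6cHi Mono, under 16 of 16 alternatives. Dpp4 was lower in CCR2+ Mac than in Ly6cHi Mono as well, by -2.20 to -1.75 over the alternatives, and was called under 16 of 16. The Cd209a call against MHC-IIHi Mac was kept under 7 of 16 alternatives and lost with no filter on dim probes and without any 1 array of the 2 groups. Against MHC-IIlo Mac it was kept under 9 of 16 and lost with no filter, in a fit to the 2 groups, and without CCR2+ Mac replicate 2, 3 or 4 or MHC-IIlo Mac replicate 1 or 3. Dpp4 kept its call under 16 of 16 against MHC-IIHi Mac and 10 of 16 against MHC-IIlo Mac, where it was lost under normexp background correction and without CCR2+ Mac replicate 1, 2 or 3 or MHC-IIlo Mac replicate 1 or 3. Zbtb46, a factor of conventional dendritic cells, differed by -0.36 ± 0.27 and -0.30 ± 0.27 from MHC-IIHi Mac and MHC-IIlo Mac, did not pass, and its arrays overlapped. Flt3 and Ccr7, also tested, did not pass in either comparison. The summed signal of the 6 markers was 4.16 to 6.34 in CCR2+ Mac, 2.48 to 3.90 in MHC-IIHi Mac, 2.51 to 3.03 in MHC-IIlo Mac and 4.38 to 5.40 in Ly6cHi Mono. Xcr1, a defining marker of cross-presenting dendritic cells, was not well above background on any macrophage array. Clec9a, another marker on the list, was well above background on 2 of 4 CCR2+ Mac arrays and 1 of 4 MHC-IIHi Mac arrays. It was so on 0 of 4 arrays of MHC-IIlo Mac and of Ly6cHi Mono, and neither of these 2 genes was among those tested. Lymphocyte markers gave 0 of 8 called by limma in each comparison between macrophages, also at an unadjusted p under 0.05, with sums of 2.13 to 4.19 in CCR2+ Mac, 2.41 to 3.60 in MHC-IIHi Mac and 1.93 to 4.49 in MHC-IIlo Mac. Over all genes 1.26%, 2.81% and 0.0724% were called there, so nothing is read from 0 of 8 called. Ly6c1 was also higher in CCR2+ Mac than in MHC-IIHi Mac (1.32 ± 0.28, adjusted p = 0.0311) and MHC-IIlo Mac (1.20 ± 0.28, adjusted p = 0.031), and lower than in Ly6cHi Mono (-3.12 ± 0.28). Each of the first 2 calls was kept under 9 of 16 alternatives, and both were lost with median scaling, in a fit to the 2 groups and without CCR2+ Mac replicate 2. The call against MHC-IIHi Mac was also lost without CCR2+ Mac replicate 1 or MHC-IIHi Mac replicate 2, 3 or 4, and that against MHC-IIlo Mac without any 1 of the MHC-IIlo Mac arrays. The part of dendritic cells or of monocytes in the Bhlhe40 and Nfil3 differences was not tested.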

How the data were processed

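RNA from 16 samples, 4 per sorted population, was hybridised to single-colour Agilent arrays. Per the file headers, the authors' scanner files hold a processed red signal, an intensity made by Agilent Feature Extraction 11.5.1.1 after its own background subtraction. The submitters' processing notes also name Partek. Column headings for probe and accession did not match their content in 16 of 16 files. The heading for gene did not in 1 file, Ly6cHi Mono replicate 1, and columns were found by content. The deposited value table holds log2 values, whose centring is not given in the sources used here, and its 16 columns were used only to check their labels.

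The signal was divided by each array's 75th percentile and put on the log2 scale. Control spots were left out, 39319 of 39429 probes had an unflagged spot on every array, and 27662 were well above background on at least 4 arrays. The brightest probe stood for each gene, and 27441 probes were named through RefSeq accessions. limma 3.58.1 in R 4.3.3 was fitted to 22112 genes or features with 1 mean per group, and Benjamini-Hochberg adjustment ran over all of them, with a threshold of 0.05. The script was tested on simulated data. Where all arrays of a group were dim for a gene, the fold is a lower bound, set against the lowest signal well above background.

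Same-numbered arrays shared a slide. The correlations of their deviations from the group means ran from 0.137 to 0.637 over 24 pairs, against -0.534 to 0.491 for other pairs. Of the 16 arrays, 7 correlated best with the array of their own number in every other group. The numbers were taken to pair the samples in the replicate block only, and the main fit left the pairing out. Alternatives were normexp background correction (offset 50), quantile and median scaling, no filter, the mean of probes, array weights, a fit to 2 groups, the replicate block and leaving out each array. The factors and gene lists were chosen with earlier results of these data known. Named genes were the 9 factors, the 3 most similar genes of each, up to 3 called genes in each direction per list and comparison, and markers beside a factor.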

Additional observations from a re-analysis of the deposited data

Results flagged for a closer look

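Of the 36 groups of 4 arrays formed by the 9 factors, 4 held an array that stood apart by Dixon's test, which chance gives in about 1 of 20 groups. Runx3 in MHC-IIHi Mac was 1.28 on replicate 2, with the other arrays at 1.79 or above. Maf in MHC-IIlo Mac was 3.98 on replicate 1, with the others from 3.13 to 3.23. Cebpa in CCR2+ Mac was 3.68 on replicate 1, with the others from 2.99 to 3.07. Cebpa in Ly6cHi Mono was 2.40 on replicate 2, with the others from 2.90 to 2.99. All are log2 signals relative to the array's 75th percentile.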

How the results depend on the processing

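Over 54 differences of the 9 factors and 16 alternatives each, 800 of 864 values kept their direction and side of the threshold, 30 lost the call, 16 gained it and 18 changed sign, none of them of a called difference. With the replicate as a block, 1 factor passed between MHC-IIHi Mac and MHC-IIlo Mac (Runx3), and the block changed no call of the 9 factors other than those given beside the results. Array weights turned Cebpa between CCR2+ Mac and MHC-IIHi Mac to 0.019, Id3 between CCR2+ Mac and MHC-IIlo Mac to -0.058 and Bhlhe40 between CCR2+ Mac and Ly6cHi Mono to -0.00215. Leaving out 1 array gave -0.224 to 0.086 for this Cebpa difference, -0.093 to 0.30 for Id3 and -0.15 to 0.48 for Bhlhe40. It gave -0.027 to 0.26 for Zeb2 between MHC-IIHi Mac and MHC-IIlo Mac and -0.045 to 0.22 for Cebpa between MHC-IIlo Mac and Ly6cHi Mono. The cause was not tested. Over all alternatives, between 2 and 3 factors passed in CCR2+ Mac against MHC-IIHi Mac, 3 and 5 against MHC-IIlo Mac and 3 and 6 against Ly6cHi Mono. Against Ly6cHi Mono, 5 to 9 passed in MHC-IIHi Mac and 7 to 8 in MHC-IIlo Mac. The share of all genes that passed also changed with the setting. With the block it was 2.51%, 5.75%, 33.8%, 31.7% and 32.2% in these comparisons, in the order given. In the main fit it was 1.26%, 2.81%, 21.9%, 21.6% and 21.5%, and nothing is read from the ranges. Over all genes the block gave 555, 1272 and 77 calls between macrophages against 279, 622 and 16 without it. The alternatives for the gene lists were chosen after seeing the data: of 3120 values of 195 called differences, markers included, 270 lost the call and 0 changed sign. The median of all genes between CCR2+ Mac and Ly6cHi Mono was -0.10, and -0.25 under normexp background correction. With 4 arrays a group and dim monocyte signals for Per3, Arntl and Mertk, folds there have only a lower bound.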
